A study of Macaca mulatta with 4 samples.

Results

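The ETO (MTG) family of transcriptional co-repressors has 3 members, RUNX1T1, CBFA2T2 and CBFA2T3, and 2 of them, RUNX1T1 (ENSMMUG00000023115) and CBFA2T2 (ENSMMUG00000023541), had a row by symbol among the 30807 genes counted here. CBFA2T3 had no row by symbol and was not analysed here. The genes were taken by symbol. RUNX1T1 was chosen by its level in granule nuclei, which was higher in both LPS libraries than in the controls, so this level is given as a description, without a test. Single nuclei were isolated from frozen cerebellum (left hemisphere with the adjoining vermis) of 4 rhesus macaque fetuses, 2 untreated controls and 2 delivered 5 days after an injection of 1 mg of lipopolysaccharide (LPS) from E. coli into the amniotic fluid, a model of chorioamnionitis. Each fetus gave 1 library, and no sort of nuclei is described. The control female and the control male were at 130 days of gestation, the LPS female at 131 days and the LPS male at 133 days, so that the LPS fetuses were also the older ones.

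ETO proteins do not bind DNA themselves but are brought to it by transcription factors, such as the E proteins TCF3, TCF4 and TCF12, and recruit NCoR and SIN3 complexes with histone deacetylases. RUNX1T1 is best known as the fusion partner of RUNX1 in acute myeloid leukemia, and in the developing nervous system the family is expressed in neurons that leave the cell cycle. Granule cells (GCs), the most abundant neurons of the cerebellum, arise from proliferating granule cell precursors in the external granule layer, migrate inward and mature in the internal granule layer.

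A barcode was taken as a nucleus if it had 500 genes or more and if mitochondrial genes gave no more than 5% of its UMIs (unique molecular identifiers, each standing for 1 captured RNA molecule). Nuclei numbered 9250, 8621, 6890 and 7804 in control female, control male, LPS female and LPS male, respectively. This order of libraries holds throughout. The libraries held 34282015 to 61665690 UMIs. Nuclei from females held more UMIs (median of 4508 and 4063 per nucleus) than those from males (1882 and 2308.5). Depth here means UMIs per nucleus, not the amount of sequencing. The share of all UMIs that lay in nuclei was 73.9, 58.7, 73.9 and 38.7%, and 16 to 21 barcodes were shared between any 2 libraries. The LPS male library stood apart: 24.2% of its nuclei fell into a cluster of low UMI number that was left unnamed, against 0.673 to 3.35% in the other libraries, and 33.1% of its granule nuclei fell into 1 mature cluster, against 5.98 to 7.52%. Of 97 class markers in the gene list, 78 had their highest level in their own class. In granule nuclei this held for 3 of 10 markers, RBFOX3, PAX6 and CADPS2. Of the 7 others, NEUROD1, NEUROD2 and ZIC1 were highest in the unnamed cluster and second in granule nuclei, CNTN2 was highest in oligodendrocytes, and FAT2, ATOH1 and BOC were also higher in other classes. ATOH1, a marker of granule cell precursors, was at 0.904 CPM (UMIs per 1000000 UMIs) in granule nuclei as a whole.

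RUNX1T1 gave 20678 UMIs in nuclei, of which 73.3% came from the granule lineage, which held 71.1% of all nuclei. In granule nuclei its level was 118, 112, 283 and 238 CPM. The 95% Poisson intervals, which cover counting error only, were 115 to 122, 106 to 118, 276 to 291 and 230 to 246 CPM. Both LPS libraries were above both controls, and the lower LPS library was 2.01 times the higher control. The mean level of the LPS libraries over that of the controls was 1.17 on the log2 scale with a pseudocount of 1 CPM, or 2.26-fold, with a pooled SD of 0.131 between libraries of a group on the same scale. It was 1.25 between the females and 1.08 between the males. Of 14960 genes tested in granule nuclei, 7.05% had both LPS libraries above both controls, and 13 genes (0.0869%) had a lowest LPS level at least 2 times the highest control level. By this measure 11 genes exceeded RUNX1T1, which was chosen for the pattern.

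No gene was called between LPS and control granule nuclei in the quasi-likelihood test of edgeR on UMIs summed per fetus (0 of 14960, or 0%, with thresholds of 0.1 on the adjusted p and 0.25 on the size of the log2 fold change). At an unadjusted p under 0.05 there were 29 genes, and DESeq2 called 0 and had 60 at an unadjusted p under 0.05. Both numbers are far below the share of 0.05 of genes that this threshold would give without any difference. The tests were thus very conservative here, and 0 calls are not read as absence of a difference.

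In both LPS libraries more granule nuclei had RUNX1T1 UMIs, and those that had them held more. The share of granule nuclei with at least 1 RUNX1T1 UMI was 28.9, 16.6, 46.3 and 39.9% as counted, which moves with depth. Each nucleus was therefore thinned to 1000 UMIs, leaving out 77, 607, 69 and 92 granule nuclei below that depth. The share was then 9.55, 9.97, 20.7 and 18.0%, and both LPS libraries were above both controls. Nuclei with 2 or more UMIs after thinning made up 1.26, 1.32, 4.87 and 3.25%. Among nuclei with any UMI, the mean number was 1.15, 1.16, 1.29 and 1.22. For comparison, the committing cluster described below, in which RUNX1T1 was near the level that free RNA would give, had thinned shares of 0.746, 1.10, 1.07 and 7.78%.

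**Figure D1:**
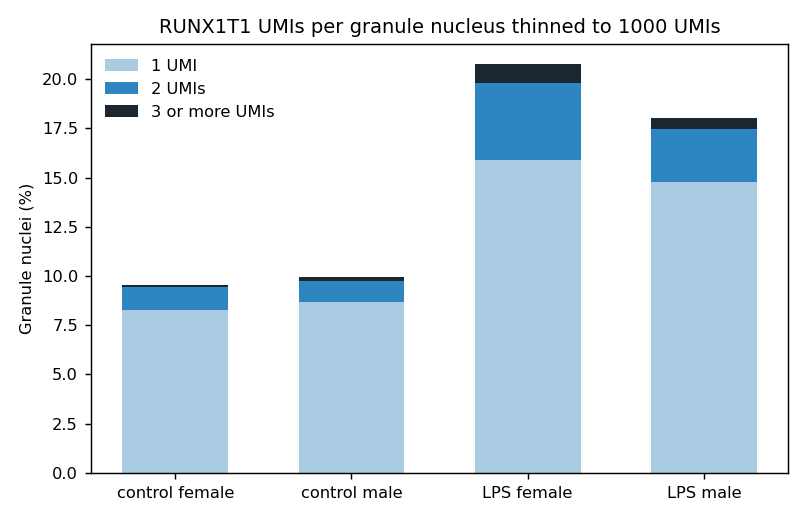
Share of granule nuclei (%, vertical axis) with 1, 2 or 3 and more RUNX1T1 UMIs in each library, after thinning every nucleus to 1000 UMIs. The stacked bars reach 9.55, 9.97, 20.7 and 18.0%, and the segments for 2 and for 3 or more UMIs are larger in both LPS libraries than in both controls.

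RUNX1T1 varied along the granule lineage in every library. The 11 clusters of granule nuclei were made without RUNX1T1 and CBFA2T2 among their features and were staged by lists of marker genes. The members of these lists came in part from tables that the study had made from the same libraries.

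In proliferating precursors, led by genes of DNA replication and mitosis such as TOP2A, DIAPH3 and BRCA2, the level was low, at 39.8, 44.5, 57.6 and 70.8 CPM. The LPS libraries were higher by factors of 1.44 between the females and 1.59 between the males as counted. With free RNA subtracted the levels were 35.7, 34.5, 56.0 and 27.5 CPM, so that LPS male was then below both controls. The Poisson interval of LPS female (48.2 to 68.3 CPM) overlapped that of control male (33.7 to 57.8 CPM). Thinned shares of nuclei with a UMI were 4.29, 3.02, 3.35 and 7.01%, so that LPS female lay between the controls and no order is read from them.

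In 3 libraries the lowest level was in the main cluster of committing cells, led by LAMA2, ROR1 and the axon guidance receptor DCC, with 8.82, 16.8, 11.9 and 76.2 CPM. It was under 17 CPM in those 3 libraries, while LPS male stood apart. In LPS male, free RNA was estimated to make up 20.8% of the UMIs of these nuclei, and empty droplets held 301 CPM. Subtracting free RNA left 0.146, 0, 5.15 and 17.3 CPM. The 2 clusters of precursors, taken singly, were between 34.4 and 57.6 CPM in the 3 other libraries, above this cluster. This did not hold for the committing stage as a whole (42.1, 53.2, 94.5 and 159 CPM), which also takes in a mixed cluster described last.

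From migration onward the level was higher than in the committing cluster in every library, and highest in LPS female. In the migrating cluster led by RASGEF1B and TSPAN18 it was 57.9, 42.4, 164 and 95.7 CPM. In the other migrating cluster, led by RASGEF1B and GALNT14, it was 86.8, 120, 315 and 131 CPM. LPS female was 2.83 and 3.63 times control female in these clusters, and LPS male was 2.26 and 1.10 times control male, with overlapping intervals of the males in the second (99.9 to 143 and 106 to 162 CPM).

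In maturing nuclei the LPS libraries lay far apart. In the cluster led by EDIL3 and IL20RB the level was 83.9, 151, 403 and 104 CPM, so that LPS female was 4.81 times control female while LPS male was 0.693 times control male. In the larger maturing cluster, led by CLSTN2 and CHST9, it was 126, 149, 415 and 212 CPM. Here both LPS libraries were above both controls, with factors of 3.29 between the females and 1.42 between the males.

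Taken as a whole stage, mature nuclei had 212, 166, 400 and 338 CPM, the highest of the stages in both controls and in LPS male. In LPS female, maturing nuclei as a whole had 412 CPM. The cluster led by TRPC7 and FSTL5 held 203, 164, 363 and 234 CPM. The cluster led by PTK2B and by GABRB2, a GABA receptor subunit, held 240.6, 176, 477 and 381 CPM. The latter cluster took 458, 474, 315 and 1498 nuclei and so weighed most in LPS male. A small mature cluster led by CDH9 and HCRTR2 (21 to 124 nuclei) held 180, 135, 414 and 286 CPM. In control male this small cluster was below both maturing clusters.

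A last cluster of 757 nuclei had markers of several stages among its leading genes (KIRREL3, RASGEF1B, ROR1 and TRPC7), and 62.9% of it was called as doublets. By its marker score it counted as committing. Its RUNX1T1 level was 107, 103, 319 and 208 CPM. Counted over all 11 clusters, both LPS libraries were above both controls in 9. The exceptions were the committing cluster led by LAMA2 and ROR1 and the maturing cluster led by EDIL3 and IL20RB. With free RNA subtracted the number was 7 of 11, and the order did not hold in that maturing cluster, in the migrating cluster led by GALNT14 (87.7, 116, 334 and 105 CPM) or in either cluster of precursors. The 7 take in the committing cluster led by LAMA2 and ROR1, at only 0.146, 0, 5.15 and 17.3 CPM. They also take in the cluster led by CDH9 and HCRTR2, where the free share was estimated at 0% in both controls and LPS male. The 11 clusters are the nuclei by which the gene was chosen, and the share of all genes with this order in granule nuclei as a whole was the 7.05% given above.

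**Figure D2:**
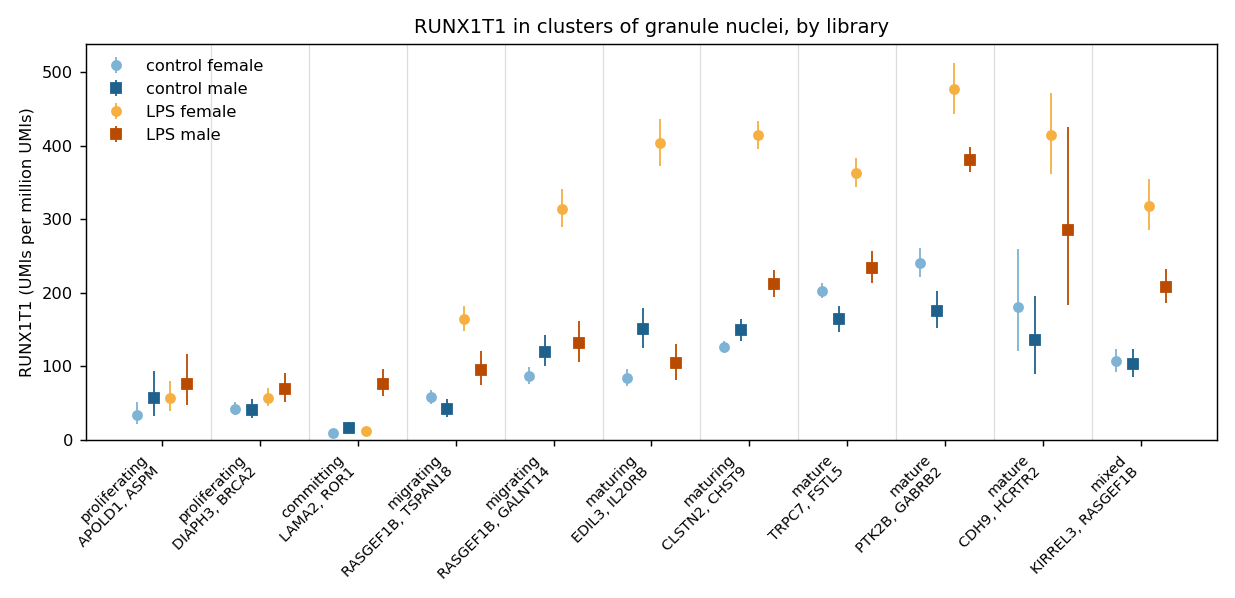
RUNX1T1 level (CPM, vertical axis) in each granule cluster, ordered by stage and named by 2 leading genes, with 1 point per library and bars for the 95% Poisson interval. In the controls and LPS female, levels are lowest in the committing cluster (8.82 to 16.8 CPM), while LPS male is at 76.2 CPM there and at 68.9 CPM in a cluster of precursors. Levels are highest in LPS female from the second migrating cluster on (315 to 477 CPM in the clusters with a single stage), with LPS male below LPS female in all of them.

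Because the make-up of granule nuclei differed in LPS male, the level was counted in other ways. With the 11 clusters given the same weight in every library it was 116, 114, 298 and 181 CPM. Without the cluster led by PTK2B and GABRB2 it was 109, 106, 269 and 168 CPM, a choice made after the data were seen, and the log2 ratio was 1.02. LPS male was 1.58 and 1.59 times control male under these settings, against 2.13 times with all granule nuclei as counted. LPS female was 2.57 and 2.48 times control female, against 2.40 times.

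Free RNA moved with the libraries as well. Empty droplets, the 10000 barcodes ranked after 3 times the number of nuclei, had 77.5, 147, 82.4 and 301 CPM of RUNX1T1. Both male libraries had more in empty droplets than in granule nuclei, and both female libraries had less. The granule level was 1.53, 0.758, 3.44 and 0.791 times that of empty droplets. Empty droplets held a median of 299, 195, 223 and 491 UMIs, and the estimated free share of granule UMIs was 8.77, 12.7, 6.97 and 18.0%.

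The level was also counted with free RNA subtracted. With this share taken off, granule nuclei had 122, 107, 298 and 224 CPM, a log2 ratio of 1.19. With the level of the committing cluster of the same library subtracted instead, a choice made after the data were seen, they had 109, 94.97, 272 and 162 CPM, a log2 ratio of 1.08. LPS male was then 2.10 and 1.71 times control male, respectively, against 2.13 times as counted. LPS female and LPS male also differed in gestational age (131 and 133 days). The part of sex, age, depth and free RNA in their difference cannot be told apart with 1 fetus of each sex per group.

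**Figure D3:**
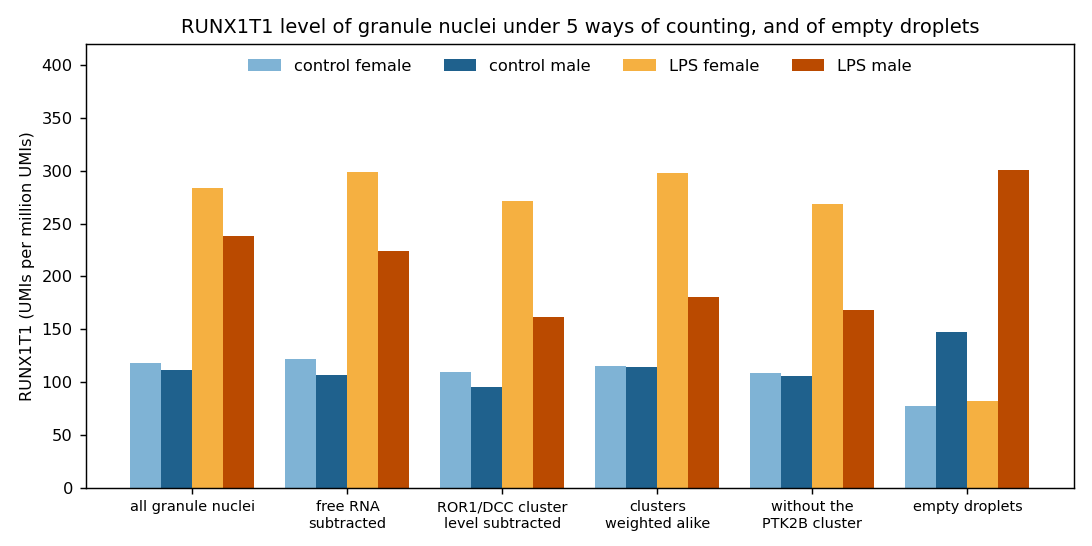
RUNX1T1 level (CPM, vertical axis) of granule nuclei in each library as counted, after 2 ways of subtracting free RNA and 2 ways of removing differences in cluster make-up, beside the level in empty droplets (right). LPS female stays between 269 and 298 CPM, LPS male ranges from 162 to 238 CPM, and the controls from 94.97 to 122 CPM, while in empty droplets LPS male is highest at 301 CPM.

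Outside the granule lineage, the highest means over the 4 libraries were those of endothelial mural cells, unipolar brush cells and fibroblasts, although in control male Golgi cells were above mural cells and fibroblasts. Unipolar brush cells, excitatory interneurons of the granule layer, had 589, 257, 712 and 363 CPM in 21, 8, 10 and 37 nuclei. Endothelial mural cells, which include pericytes, had 768, 253, 421 and 761 CPM in 6 to 9 nuclei. Fibroblasts had 480, 206, 346 and 359 CPM. None of these classes separated the groups.

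Inhibitory neurons differed among themselves. Golgi cells, inhibitory neurons of the granule layer, had 297, 254, 291 and 222 CPM. Molecular layer interneurons had 218, 162, 277 and 151 CPM, and PAX2+ interneurons had 85.8, 87.1, 166 and 110 CPM. The markers of these classes overlapped. PAX2 was higher in Golgi cells (676 CPM) than in PAX2+ interneurons (478 CPM), as were GAD2 and SLC32A1, while GAD1 and TFAP2B were highest in PAX2+ interneurons. ADARB2, listed for PAX2+ interneurons, was highest in molecular layer interneurons. Of the molecular layer list, SORCS3 and INPP4B were highest in their own class, and TAFA2, PRKCD and GAD1 were not. Purkinje cells, the output neurons of the cerebellar cortex, had 164, 71.2, 244 and 47.3 CPM in 32, 56, 23 and 17 nuclei, with both females above both males.

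Levels also differed among glia. Astrocytes had 144, 98.3, 147 and 144 CPM, and Bergmann glia, the radial glia along which GCs migrate, had 88.1, 79.6, 99.8 and 142 CPM. Oligodendrocytes had 100, 74.0, 136 and 87.7 CPM. Microglia, the immune cells of the brain, had 27.4, 76.4, 102 and 174 CPM, from only 9, 16, 27 and 32 RUNX1T1 UMIs.

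Ordered by the mean over the 4 libraries, the classes ran from mural cells (551 ± 256 CPM, SD, n = 4 libraries), unipolar brush cells (480 ± 208) and fibroblasts (348 ± 112) through Golgi cells (266 ± 35.3), molecular layer interneurons (202 ± 57.9) and the granule lineage (188 ± 86.2) to endothelial stalk cells (138 ± 83.6), astrocytes (133 ± 23.2) and Purkinje cells (132 ± 90.3). PAX2+ interneurons (112 ± 37.7), Bergmann glia (102 ± 27.6), oligodendrocytes (99.6 ± 26.7), microglia (94.7 ± 61.0) and proliferating glia (78.4 ± 27.7) followed. The ranges of the 4 libraries overlapped between each class and the next. The place of the granule lineage depended on the group: by the mean of the controls (115 CPM) it was number 8 of 14 classes, below astrocytes (121) and Purkinje cells (118), and by the mean of the LPS libraries (261 CPM) it was number 4. Choroid or ependymal cells were left out of the order, since the control libraries held 2 and 3 nuclei.

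**Figure D4:**
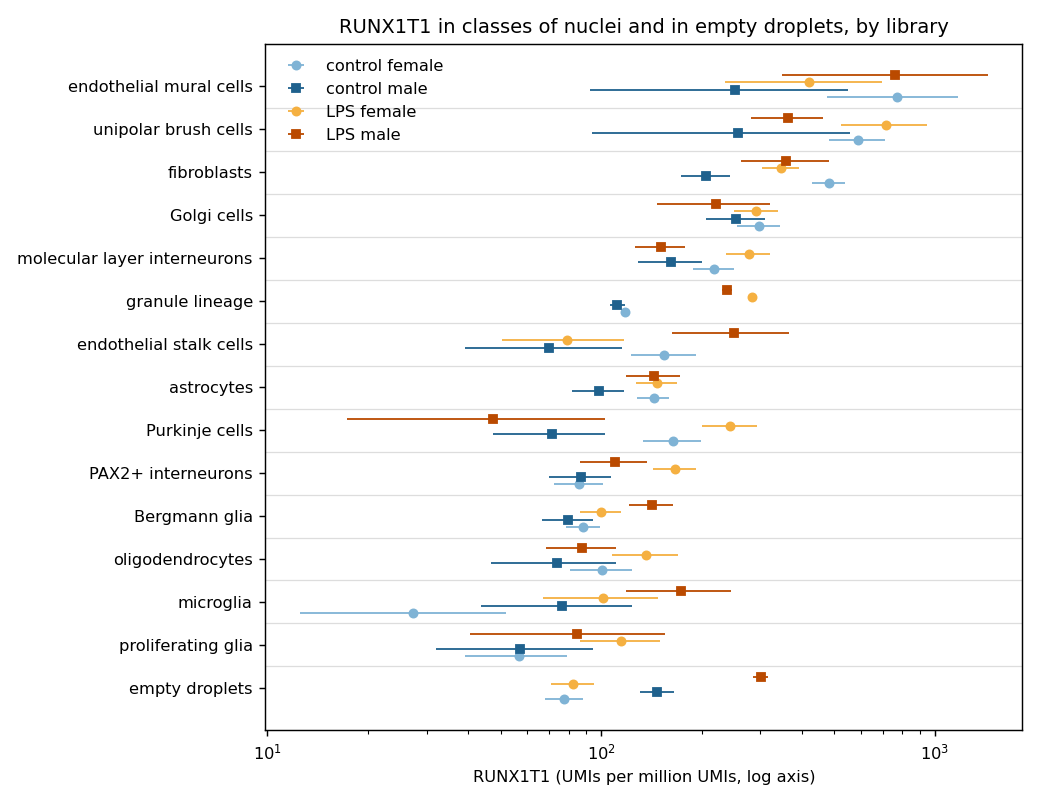
RUNX1T1 level (CPM, log axis) in each class of nuclei and in empty droplets, with 1 point per library and bars for the 95% Poisson interval, ordered by the mean over libraries. In the granule lineage the controls (112 and 118 CPM) lie below the LPS libraries (238 and 283 CPM). Both LPS points are also above both control points in Bergmann glia, astrocytes, PAX2+ interneurons, microglia and proliferating glia. In fibroblasts (206 to 480 CPM) and Golgi cells (222 to 297 CPM), among others, the groups overlap.

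RUNX1T1 was tested between LPS and control in the 8 other classes with at least 30 nuclei in every library, and it was called in 0 of them by edgeR, with Benjamini-Hochberg adjusted p-values from 0.9997 to 1.000. The same test called 0 genes (0%) in each of these classes, with 33 to 157 genes at an unadjusted p under 0.05. As in granule nuclei, these numbers are below a share of 0.05 of the genes tested, so 0 calls are not read as absence of a change. DESeq2 called 1 gene in oligodendrocytes and 4 in fibroblasts, and RUNX1T1 was not among them. With sex as a block edgeR called 12 genes in Bergmann glia and 37 in oligodendrocytes and 0 in the other classes, and RUNX1T1 was again not among them.

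Both LPS libraries were above both controls in 4 of the 8 classes. The largest fitted change was in microglia, with a log2 fold change of 1.51 ± 0.64 (SE, n = 2 against 2 libraries), where 8.8% of the genes tested had this order. It ranged from 0.92 without control female to 2.33 without control male. In PAX2+ interneurons it was 0.69 ± 0.35, where 9.45% of genes had this order, and it ranged from 0.28 without LPS female to 0.98 without LPS male. In Bergmann glia the change was 0.50 ± 0.33, beside a background of 9.11% of genes, and it was 0.23 with doublets removed and 0.29 without LPS male.

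Astrocytes were the remaining class of these 4, with 0.24 ± 0.38 beside a background of 9.86% of genes, and the lower LPS library was only 1.00 times the higher control. Without control male the change was -0.10. In LPS male, the estimated free share of UMIs was 21.8% in Bergmann glia and 24.4% in astrocytes, with 301 CPM of RUNX1T1 in empty droplets. After subtraction of free RNA the levels were 89.3, 66.9, 101 and 97.2 CPM in Bergmann glia and 150, 89.5, 151 and 93.1 CPM in astrocytes. Both LPS libraries remained above both controls in Bergmann glia, but not in astrocytes. After subtraction the groups overlapped in PAX2+ interneurons too, at 86.5, 81.2, 172 and 76.7 CPM, but not in microglia, at 22.5, 66.2, 103 and 155 CPM. Thinned shares of microglia with a UMI were 2.5, 10.45, 6.56 and 7.14%, so that control male was above both LPS libraries. In PAX2+ interneurons and Bergmann glia both LPS libraries were above both controls in these shares.

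In the other 4 classes the groups overlapped before subtraction as well, beside backgrounds of 11.5, 11.7, 13.8 and 8.77% of genes in the order given next. The log2 fold changes were 0.13 ± 0.48 in molecular layer interneurons, 0.33 ± 0.42 in oligodendrocytes, 0.03 ± 0.42 in fibroblasts and 0.41 ± 0.65 in endothelial stalk cells (SE, n = 2 against 2 libraries). Leaving out 1 library turned the sign of each: they were -0.53 in molecular layer interneurons and -0.11 in oligodendrocytes without LPS female, -0.49 in fibroblasts without control male and -0.47 in stalk cells without LPS male. In molecular layer interneurons and stalk cells the sign also turned without control male (-0.15 and -0.05).

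Outside the tested classes, proliferating glia (28 to 73 nuclei) had 56.6, 57.2, 115 and 84.6 CPM, and the nuclei of the unnamed cluster had 137, 111, 236 and 295 CPM. Both LPS libraries were above both controls in each, with no test and no share of all genes counted for them. The unnamed cluster took 310, 58, 112 and 1888 nuclei, and empty droplets held 77.5, 147, 82.4 and 301 CPM. In LPS male the level of the unnamed cluster was thus close to that of empty droplets, and the part of free RNA was not tested. In proliferating glia the levels with free RNA subtracted were 54.6, 38.3, 118 and 84.6 CPM. The free share of LPS male was estimated at 0% there, so nothing was taken off in that library. The order can therefore not be checked in this way. Thinned shares of proliferating glia with a UMI were 2.94, 5.63, 6.06 and 3.57%, so that LPS male was below control male. Whether the change in granule nuclei differed from that in any other class was not tested.

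CBFA2T2 could not be described. Its row held 0 UMIs in every barcode of the 4 libraries, which held 194525814 UMIs in all, and this allows a level of up to 0.0154 CPM for counting error alone. The row just before it in the gene list, ENSMMUG00000048532, which has no symbol, held 39627 UMIs in nuclei, and its level in granule nuclei was 368, 454, 399 and 305 CPM. Reads that fit more than 1 overlapping gene are not counted by the software used, and whether these rows overlap could not be checked without the annotation. A count of 0 in this row is therefore not read as absence of the RNA.

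The genes through which ETO proteins act were then examined in granule nuclei. The list had 27 genes, of which 26 had a row and 23 passed the filter on low counts; GFI1, GFI1B and RUNX3 did not pass, and TAL1 had no row. None of the 23 was called by edgeR (0 at an unadjusted p under 0.05), and DESeq2 called 0. Over all 14960 genes tested both tools also called 0, with 29 at an unadjusted p under 0.05 by edgeR. The 0 calls are therefore not read as a result about these partner genes. Of the 23, 7 had a log2 fold change above 0 and 16 below, with a median of -0.09, beside a median of 0.01 over all 14960 genes tested. Both LPS libraries were above both controls for 0 of the 23 and below both for 1 (TBL1XR1, at 184, 190, 176 and 180 CPM), beside backgrounds of 7.05 and 4.88% of genes.

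The co-repressor scaffold NCOR1 had 323, 480, 331 and 416 CPM, and the males were above the females in each group. The histone deacetylase HDAC2 had 118, 142, 130 and 105 CPM, and HDAC3, the deacetylase of the NCoR complex, had 39.2, 52.1, 38.8 and 49.6 CPM. SIN3A, the scaffold of another deacetylase complex, had 76.6, 114, 73.8 and 79.3 CPM and a log2 fold change of -0.30 ± 0.30. TBL1X, a subunit of the NCoR complex, had 27.3, 33.4, 32.9 and 34.6 CPM and a log2 fold change of 0.16 ± 0.28. All of these genes were present in all 4 libraries and none separated the groups.

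Among the factors that bring ETO proteins to DNA, the E protein TCF4 was the most abundant in counts, at 1852, 1651, 1968 and 1335 CPM. Another E protein, TCF12, had 867, 667, 972 and 543 CPM. The lowest fold changes of the list among genes with a mean of at least 5 CPM were those of the E protein TCF3 (36.4, 102, 38.1 and 56.2 CPM, log2 fold change of -0.52 ± 0.53) and of the adaptor LDB1 (17.9, 45.6, 19.3 and 26.9 CPM, -0.42 ± 0.50). In both, the control male was highest and the males were above the females.

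The repressor BCL6 had the highest fold change, 1.40 ± 1.20, at 3.08, 6.40, 1.68 and 22.8 CPM. It was high in LPS male alone, and LPS female was the lowest library. ATN1, another co-repressor, had 66.9, 110, 75.2 and 114 CPM and a log2 fold change of 0.12 ± 0.37. RUNX1, the DNA-binding protein to which RUNX1T1 is fused in leukemia, was at 2.37, 3.35, 2.32 and 2.46 CPM in granule nuclei, and its partner CBFB at 70.1, 65.8, 83.2 and 45.1 CPM.

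**Figure D5:**
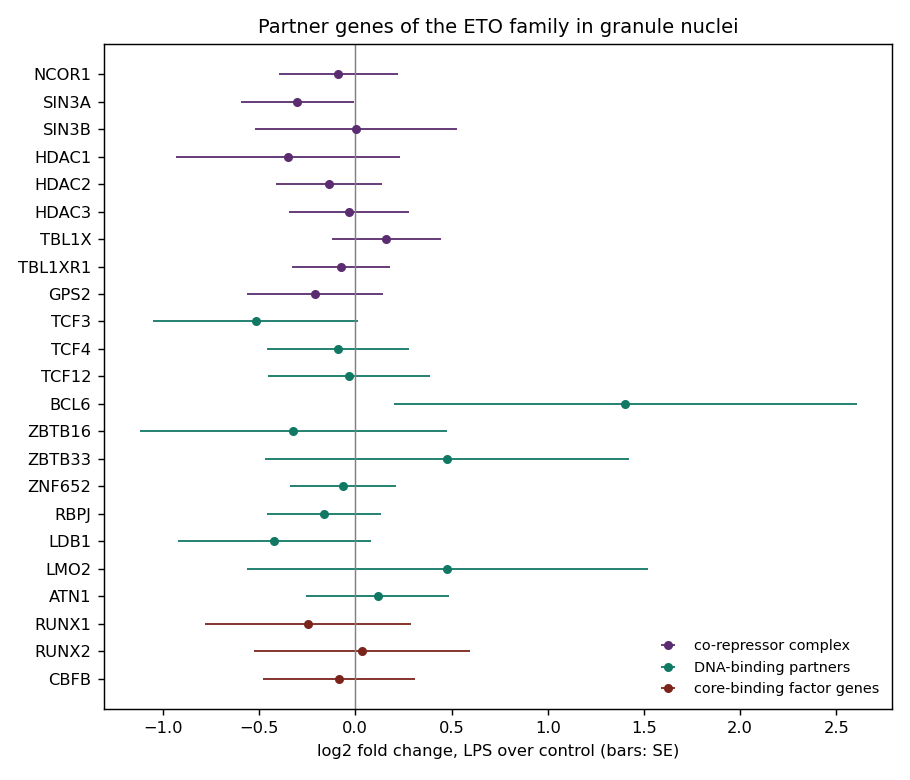
Log2 fold change between LPS and control granule nuclei (horizontal axis, edgeR, bars for the SE, n = 2 against 2 libraries) of the 23 partner genes that passed the filter, colored by role. The values lie around 0 with 16 of 23 below it, and the bar of BCL6 (1.40 ± 1.20) is the longest.

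Genes whose pattern over classes, granule clusters and libraries was most like that of RUNX1T1 were sought by Pearson's correlation of log2(CPM + 1) over 89 sums of at least 20 nuclei, among 11434 genes with a mean of at least 5 CPM. They were NRG2 (r = 0.676), ENSMMUG00000005470 (0.672), KIF26B (0.656), SEL1L3 (0.651) and TANC2 (0.650). The 89 sums come from 4 libraries and share depth and free RNA, so these values are descriptive. For none of the 5 were both LPS libraries above both controls in granule nuclei. NRG2, a ligand of ERBB receptors, had 229, 187, 203 and 298 CPM, and TANC2, a scaffold protein of the synapse, had 388, 263, 379 and 317 CPM.

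The neighbours of RUNX1T1 did not share its pattern in granule nuclei. By the gene order of the RefSeq annotation of a newer rhesus assembly, which is not the build of the files, they are SLC26A7, an anion transporter, and TRIQK. SLC26A7 had 8.01, 13.6, 15.6 and 9.36 CPM, so that LPS male was below control male. TRIQK had 6.21, 6.25, 5.60 and 9.82 CPM, so that LPS female was the lowest library. The lower LPS library exceeded the higher control for neither gene.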

How the data were processed

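UMI counts per gene and barcode were deposited by the authors for 4 libraries, without normalization, filtering or pooling. Reads were mapped with Cell Ranger (5.0 in the protocol, 4 in the processing notes) to Mmul_8.0.1 with introns included, on 10x Genomics 3' chemistry. The removal of free RNA by the study is not in these counts. The members and lists used here were chosen with earlier results of these data known, and stage lists draw on the study's own tables.

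Nuclei (at least 500 genes, at most 5% mitochondrial UMIs) were integrated by anchors in Seurat 5.3.0 (R 4.3.3; 2000 features without the members, 30 dimensions, resolution 0.5), and granule nuclei were clustered again. Each of 24 clusters took the class with the highest marker score, and 1 stayed unnamed. UMIs were summed per class and fetus, because nuclei are not replicates, and tested with edgeR 4.0.16 (quasi-likelihood, filterByExpr, TMM, Benjamini-Hochberg), with calls at thresholds of 0.1 on the adjusted p and 0.25 on the size of the log2 fold change. CBFA2T2 and CBFA2T3 gave no values to test. Intervals are exact Poisson at 95% and cover counting error only, and 0 counts allow 3. The free share of a class was the 0.25 quantile of the ratio of other classes' markers in it to those in empty droplets. Doublets were kept and called by Scrublet in scanpy 1.11.5 (Python 3.11.15). Its automatic threshold marked 0% of both male libraries, so the median threshold of the female libraries was used there. Alternatives were DESeq2 1.42.0, its size factors, no filter on low counts, at least 1000 genes per nucleus, doublets removed, the number of nuclei of the study, free RNA subtracted, sex as a block and leaving out each library. Beside the members, named genes were partner genes (the 3 highest and 3 lowest of at least 5 CPM, since none was called, and others named for their role after their values were seen), the 5 genes most alike, nearest neighbours and markers. The test was tested on simulated data. HDAC1 was matched by identifier. A partner gene of the list is not reported here.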

Additional observations from a re-analysis of the deposited data

Results flagged for a closer look

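In 2 classes RUNX1T1 was lower in LPS female than in control female but higher in LPS male than in control male, with separate 95% Poisson intervals within each pair. In fibroblasts the log2 ratio of LPS over control was -0.47 between the females and 0.80 between the males. In endothelial stalk cells it was -0.96 between the females and 1.82 between the males, with 31 nuclei in LPS male. The difference between the sexes was not tested, since each pair holds 1 fetus per group. The pairs also differ in depth, free RNA and gestational age, and the part of these was not tested. In LPS male, empty droplets held 301 CPM of RUNX1T1, beside 250 CPM in stalk cells and 359 CPM in fibroblasts. The free share of LPS male was estimated at 0% in both classes, from only 34 fibroblasts and 31 stalk cells, against 18.0% in its granule nuclei. In stalk cells of LPS female (41 nuclei) it was estimated at 0% too. Nothing was taken off in these cases, so these levels cannot be checked for free RNA in this way. The stalk cell levels of control male and LPS female rest on 15 and 24 RUNX1T1 UMIs.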

How the results depend on the processing

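The log2 ratio of RUNX1T1 in granule nuclei, 1.17 as reported, ranged from 1.02 to 1.29 over 15 other settings. All settings use the libraries by which the gene was chosen, so this range is no test of the difference. The ratio was lowest, at 1.02, without the mature cluster led by PTK2B and GABRB2. That setting was added after the data were seen, as that cluster holds most of its nuclei in LPS male. Leaving out 1 library at a time gave 1.04 to 1.29. With sex as a replicate block, edgeR called 0 genes in granule nuclei, and 0 were called in the other alternatives that kept every library, DESeq2 among them. The block gave 306 genes at an unadjusted p under 0.05 instead of 29. In other classes the block gave 12 calls in Bergmann glia and 37 in oligodendrocytes, where the fit without it gave 0. Without the filter on low counts every other class tested had calls, from 3 in PAX2+ interneurons to 39 in fibroblasts, and RUNX1T1 was not among them. The block changed no call of RUNX1T1 or of a partner gene, and replicate numbers pair nothing here, because the labels give sex only. RUNX1T1 was called in 0 of 8 other classes, and the partner list had 0 calls, in all 12 alternatives each. For RUNX1T1 in these 8 classes and for the 3 lowest and 3 highest partner genes, signs of uncalled values turned in 14 cases. Turns of the other partner genes were not counted. Over the settings, 6 to 10 of the partner genes tested had a log2 fold change above 0. For RUNX1T1, leaving out 1 library gave log2 fold changes from 0.92 to 2.33 in microglia, from 0.28 to 0.98 in PAX2+ interneurons, from 0.29 to 0.71 in Bergmann glia, from -0.10 (without control male) to 0.69 in astrocytes, from -0.53 (without LPS female; -0.15 without control male) to 0.59 in molecular layer interneurons, from -0.11 (without LPS female) to 0.68 in oligodendrocytes, from -0.49 (without control male) to 0.79 in fibroblasts, and from -0.47 (without LPS male; -0.05 without control male) to 1.21 in endothelial stalk cells. It was -0.0049 in astrocytes with free RNA subtracted and -0.031 in fibroblasts without the filter. In granule nuclei TCF3 ranged from -1.03 to 0.32 and LDB1 from -0.89 to 0.31, positive without control male. SIN3A ranged from -0.49 (without control female) to -0.057 (without control male), and TBL1X from 0.10 to 0.25. ATN1 ranged from -0.22 (without LPS male; -0.13 without control female) to 0.44, and BCL6 from -1.46 (without LPS male) to 2.30. The log2 ratio of RUNX1T1 in empty droplets was 0.76, and 0.80 in barcodes of 10 to 100 UMIs. Between the females it was 0.087 and -0.012, and between the males 1.02 and 1.22, so LPS male alone carried both values. In LPS male the second set held only 620 barcodes with 23611 UMIs of all genes. CBFA2T2 and CBFA2T3 gave no value under any setting. Each test rests on 2 fetuses per group, and in microglia, mural cells and unipolar brush cells few nuclei limit the levels too.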
